A study of Mus musculus with 6 samples.

Results

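The 10 genes described here encode RNA-binding proteins that choose which exons enter cardiac messenger RNAs: *Rbm20*, *Rbm24*, *Mbnl1*, *Mbnl2*, *Celf1*, *Celf2*, *Rbfox1*, *Rbfox2*, *Qk* and *Ptbp1*. They were taken by name from the table's gene symbols, and all 10 were listed among 20066 genes. Each symbol matched 1 protein-coding gene, and no filter on low values was applied. Cardiomyocytes (CMs) from C57BL/6 mice at P0–1, the first day or so after birth, were cultured with the solvent DMSO or with cell-permeable α-ketoglutarate (αKG) at 100 μM for 96 h, with 3 libraries of total RNA in each group. DMSO CMs were the control for the solvent, and no genotype differed between the groups. The cells came from dissociated neonatal hearts that were plated and cultured, without a stated sort for CMs, and the labels do not say whether the libraries came from separate cultures, so p-values measure the spread between these libraries. The study asked whether αKG holds neonatal CMs in an immature, dividing state. Here the question was whether the genes that direct the splicing switch of the maturing heart changed in level.

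After birth the heart exchanges fetal for adult exons in sarcomere, calcium-handling and membrane-trafficking transcripts. MBNL proteins favour many adult exons, CELF1 favours many fetal ones, and the 2 families often act on the same transcripts in opposite directions. RBM20 represses exons of titin and other large sarcomeric transcripts, RBM24, RBFOX proteins and QKI favour muscle exons, and PTBP1 represses exons that differentiated muscle includes. The amount of each regulator is one way in which this programme is set. Alternative isoforms and location in the cell are others, and gene-level counts measure neither.

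Values are the deposited normalized counts per gene, which the authors had scaled to each library's size factor and rounded. The depth was estimated from the spacing of low values at 3726069 to 4427587 reads in genes per library. αKG replicate 3 stood apart from its group: its log2 values correlated at 0.977 to 0.980 with the DMSO libraries and at 0.962 and 0.963 with αKG replicates 1 and 2. It was kept in every comparison, and results are also given without it. DMSO replicates 2 and 3 did not differ beyond counting noise when 13077 genes were summed (mean chi-square 1.02, p = 0.103), and the remaining DMSO pairs did (1.43 and 1.93). A set of 16 genes nevertheless separated the pair at an adjusted p under 0.05, with all 16 higher in replicate 2. Each was therefore kept as a sample, and no call among the regulators, other splicing factors, substrates or intronic loci was left when the values of both were averaged. The CM label was met by all 10 CM markers, with 8448 to 11406 normalized counts of *Ryr2*, the calcium release channel, and 4910 to 5839 of *Myh6*, the adult-type myosin heavy chain; their summed level was 25729 to 26286 in DMSO and 26313 to 30052 in αKG.

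Other cell types were also present, and their markers moved. Over all genes, 2.83% were called higher and 0.952% lower, or 19.3% and 17.9% without αKG replicate 3. Of 10 endothelial markers, 7 were called lower, and their summed level was 1513 to 1676 in DMSO and 690 to 1006 in αKG. The endothelial cadherin *Cdh5* had 519, 442 and 518 counts in DMSO and 222, 195 and 316 in αKG, and the VEGF receptor *Kdr* 393, 364 and 371 against 153, 128 and 253. Both lost their calls without any one library other than αKG replicate 3 (limma adjusted p 0.0991 to 0.255). None of 10 fibroblast markers was called, or 8 higher without αKG replicate 3, with a summed level of 3251 to 3436 in DMSO against 7268, 7094 and 3314 in αKG replicates 1 to 3. *Col1a1* and *Col1a2*, the chains of type I collagen, showed this pattern with 1018, 1006, 951 against 2402, 2288, 1042 and 645, 620, 581 against 1872, 1780, 689. Epicardial markers summed to 188 to 212 in DMSO and to 900, 879 and 125 in αKG, with none of 10 called, or all 10 higher without αKG replicate 3. *Upk3b* and *Upk1b* led that list, the former at 23 to 28 counts in DMSO and 137, 131 and 15 in αKG and the latter at 31 to 43 and 126, 129 and 14. Of 10 mural markers 2 were called higher, *Cnn1* and *Cspg4*, with sums of 4306 to 4415 and 4613 to 5027, and *Cspg4* lost its call in the same way (limma adjusted p 0.155 to 0.264). *Abcc9*, highest of that list and also made by CMs, had 2114, 2020 and 2047 counts against 1590, 1495 and 2060, and *Cspg4* 801, 846 and 777 against 1576, 1282 and 1021. Macrophage markers were near the floor, with 5 of 10 listed and sums of 23 to 41 over all 6 libraries; the highest, *Mrc1* and *Cd68*, lay at 8 to 15 and 4 to 27. Neuronal and glial markers summed to 45 to 76 with 4 of 9 listed, and *Tubb3* and *S100b* lay at 33 to 57 and 2 to 13. The splicing regulators are made in many of these cells too. In bulk RNA, fewer cells of a type and less RNA per cell cannot be told apart, and the part of these cells in any result that follows was not tested.

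Per kilobase of annotated exon, the 10 regulators spanned a wide range in DMSO CMs. This length holds the exons of every annotated transcript, used or not, and the order depends on it. In counts, the DMSO mean of *Qk* (3697) exceeded that of *Rbm20* (2731), *Mbnl1* (1597) that of *Mbnl2* (1395), and *Celf2* (674) that of *Ptbp1* (303). *Rbm20*, whose product is largely restricted to striated muscle, ranked first per kb at 402 ± 3.45 normalized counts (SD, n = 3). *Qk*, which encodes the STAR-family protein QKI, followed at 259.6 ± 10.4 and *Rbm24*, a muscle-enriched RNA-binding protein, at 258.7 ± 5.47, and the libraries of these 2 overlapped. *Rbfox2* lay at 194 ± 5.73, *Celf1* at 147 ± 1.45, *Mbnl2* at 116 ± 7.64, *Mbnl1* at 85.3 ± 2.13 and *Ptbp1* at 63.9 ± 1.08. *Celf2* was far lower at 26.1 ± 0.753, and *Rbfox1* was last at 9.32 ± 1.38. All neighbours in this order other than *Qk* and *Rbm24* were separate in their DMSO libraries, and the order of the means in αKG was the same. *Rbfox2* thus carried nearly all the signal of its pair, with *Rbfox1* at 4.15% to 5.19% of their summed level per kb in DMSO and 3.95% to 5.37% in αKG.

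**Figure D1:**
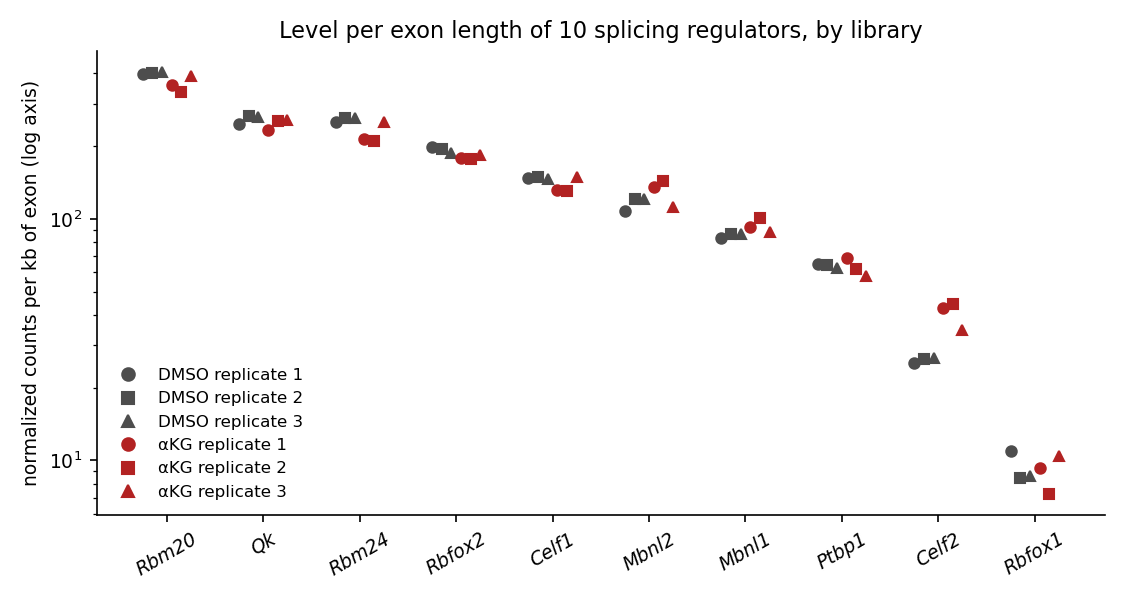
Normalized counts per kb of annotated exon (log axis) for the 10 regulators, ordered by their mean in DMSO; each point is 1 library, grey for DMSO and red for αKG, with a marker shape for each replicate number. The order runs from *Rbm20* at a mean of 402 to *Rbfox1* at 9.32 in DMSO, and *Celf2* is the gene whose red points lie well above the grey ones.

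Whether αKG changed these levels was tested with limma on log2(value + 1) over all 20066 genes. Only *Celf2* passed, with higher values in αKG. Hence 1 of 10 regulators was called, against 3.78% of all genes in either direction and 2.83% higher. Without adjustment 3 of 10 had a p under 0.05 (28.1% of all genes), namely *Celf2*, *Rbm20* and *Rbm24*. The groups did not overlap in 4 of 10, 2 of them higher and 2 lower in αKG, compared with 28.3% of all genes, 13.7% higher and 14.6% lower, so this share stood little above the background. Log2 fold changes were positive in 3 and negative in 7 members, with a median of -0.06 against 0.04 over all genes.

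*Celf2* (ENSMUSG00000002107; chromosome 2, 6539694 to 7509563, minus strand, GRCm38) encodes the second CELF protein, which is made in heart, brain and blood cells. It had 652, 683 and 688 counts in DMSO and 1108, 1151 and 895 in αKG. All 3 αKG libraries exceeded every DMSO library, with replicate 3 closest to the controls. The means were 674 ± 19.5 and 1051 ± 137 (SD, n = 3), a 1.55-fold higher level with a log2 fold change of 0.63 ± 0.09 (SE, 95% interval 0.42 to 0.84) at a limma adjusted p of 0.0159. The call depended on single libraries: without αKG replicate 3 the log2 fold change was 0.74 (limma adjusted p = 0.000373), whereas without any one of the other 5 libraries the adjusted p was 0.087 to 0.255, and with DMSO replicates 2 and 3 averaged it was 0.153. Over 17 alternative fits the log2 fold change stayed between 0.27 and 0.74, and 8 of them called the gene.

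*Celf2* is a long locus of 970 kb, with 25.9 kb of annotated exon. Its longest transcript has 42.1% GC, below the 48.8% of the median gene. Since capture and amplification can differ between libraries with base composition and length, a correction for GC content and exon length within each library was tried. It lowered the log2 fold change to 0.27 ± 0.07 (limma adjusted p = 0.0487). With replicate number added as a block, the corrected value was not called (limma adjusted p = 0.0537). The correction also removes any effect of αKG that follows GC content or exon length. Such an effect and a technical one cannot be told apart. Of the 75-base windows of *Celf2* transcripts, the read length of the study, 1801 of 26489 (6.8%) also occurred in *Gm26565*, which is not in the table. The match was made on either strand, and the counting is not stated to use strand. Whether reads from those windows were dropped is therefore not known.

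*Celf2* transcription can begin at widely spaced sites. RefSeq places 5 start windows of 300 bases (250 before to 50 after each start, GRCm38.p6) over 675 kb, of which the most distal and the next overlap. Their counts of CpG, the dinucleotide CG, are 4, 6, 6, 48 and 8 from the most distal start inwards, against a median of 7 over 32851 windows of all genes. CG reads the same on both strands and cannot overlap itself. The most distal window and the CpG-rich one are shown because they differ most among the 5 starts of the called gene, together with that of *Celf1*, the partner that did not move with it. Each reads 5′ to 3′ on the gene's strand, with CG in capitals.
Celf2, chr2:7396149-7396448, minus strand, 4 CpG: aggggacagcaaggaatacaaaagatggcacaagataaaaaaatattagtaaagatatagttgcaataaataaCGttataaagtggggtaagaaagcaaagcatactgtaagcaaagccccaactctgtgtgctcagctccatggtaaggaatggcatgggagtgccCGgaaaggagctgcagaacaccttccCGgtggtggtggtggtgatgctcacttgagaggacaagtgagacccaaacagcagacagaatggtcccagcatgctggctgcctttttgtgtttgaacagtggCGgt
Celf2, chr2:6871986-6872285, minus strand, 48 CpG: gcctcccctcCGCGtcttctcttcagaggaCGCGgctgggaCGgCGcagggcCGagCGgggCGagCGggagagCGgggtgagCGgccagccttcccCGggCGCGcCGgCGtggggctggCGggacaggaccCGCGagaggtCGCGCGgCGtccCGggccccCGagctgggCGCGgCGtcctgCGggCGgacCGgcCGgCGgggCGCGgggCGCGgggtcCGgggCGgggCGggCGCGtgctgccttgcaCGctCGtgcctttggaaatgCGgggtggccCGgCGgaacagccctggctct
Celf1, chr2:90940147-90940446, plus strand, 34 CpG: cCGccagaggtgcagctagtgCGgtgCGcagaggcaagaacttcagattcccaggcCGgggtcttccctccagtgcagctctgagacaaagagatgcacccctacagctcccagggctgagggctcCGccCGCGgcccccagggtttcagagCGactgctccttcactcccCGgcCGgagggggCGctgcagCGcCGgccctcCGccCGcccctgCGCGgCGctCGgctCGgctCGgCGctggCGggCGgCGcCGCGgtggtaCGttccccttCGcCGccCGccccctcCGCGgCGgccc
At least as many CpG as in the second of these were found in 1.22% of all windows, and as in the third in 7.73%. Gene-level counts do not tell from which start the added *Celf2* reads came.

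*Celf1* (ENSMUSG00000005506; chromosome 2, 90940382 to 91019497, plus strand), the CELF protein best known for favouring fetal exons, had 1249, 1253 and 1230 counts in DMSO and 1107, 1104 and 1256 in αKG. Replicates 1 and 2 of αKG lay below all controls and replicate 3 above them, so the groups overlapped (log2 fold change -0.11 ± 0.07 SE, limma adjusted p = 0.31). The make-up of the pair was also compared within libraries, as 1 of 6 ratios. It rests on the same *Celf2* values and is no separate evidence for them. Of the summed level per kb, *Celf2* made up 14.6%, 15.1% and 15.4% in DMSO and 24.6%, 25.4% and 18.9% in αKG. The groups were separate, and on this scale *Celf1* remained the major form in all 6 libraries. In counts *Celf2* stood above *Celf1* in αKG replicates 1 and 2, at 1108 and 1151 against 1107 and 1104, so that ranking depends on the exon length used. The log2 ratio of *Celf1* to *Celf2* was 0.74 lower in αKG, a difference of -0.74 (-0.47 with GC and length corrected), with an exact two-sided permutation p = 0.1, the smallest that 3 against 3 libraries can give (0.3 adjusted over 6 ratios).

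**Figure D2:**
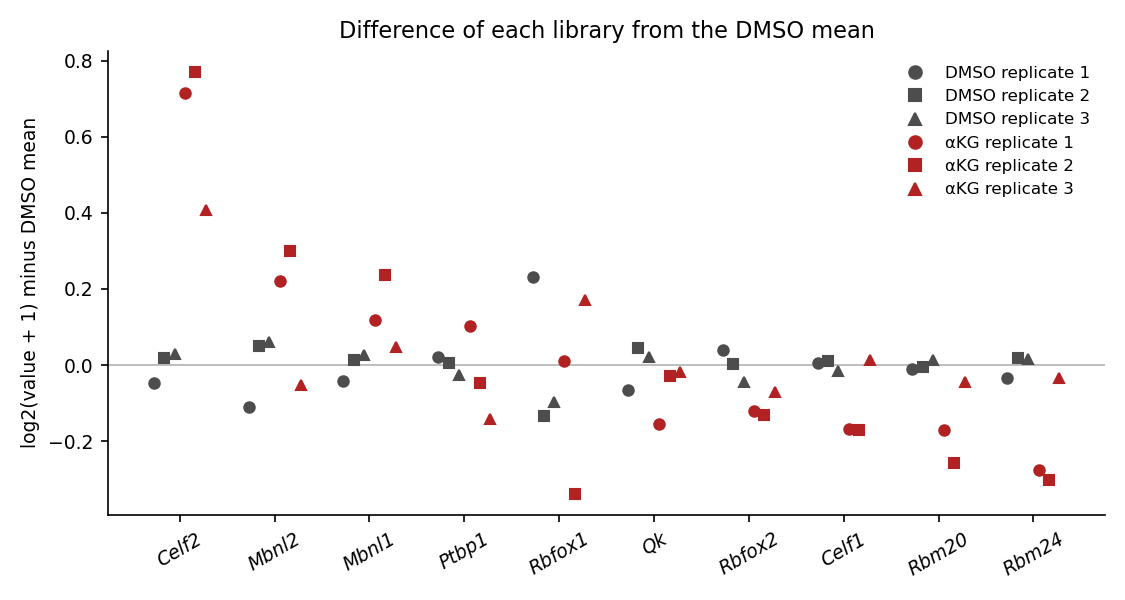
Difference of each library from the DMSO mean, in log2(value + 1), for the 10 regulators, ordered by fold change; grey points are DMSO and red points αKG libraries, with a marker shape for each replicate number. *Celf2* stands alone with all red points above 0.4, and in *Mbnl2*, *Celf1*, *Rbm20* and *Rbm24* the red triangle, αKG replicate 3, lies close to the grey points.

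The MBNL genes encode zinc-finger proteins that favour adult exons in heart and skeletal muscle. *Mbnl1* (ENSMUSG00000027763; chromosome 3, 60472830 to 60629750, plus strand) had 1552, 1613 and 1627 counts in DMSO and 1734, 1881 and 1651 in αKG. Every αKG library was above every control, but replicate 3 only just, and the log2 fold change of 0.13 ± 0.06 (SE) was not called (limma adjusted p = 0.194). This direction was reversed under the correction for GC and length, where the log2 fold change was -0.28 ± 0.09 (limma adjusted p = 0.0693). With replicate number added to that correction as a block, *Mbnl1* was called lower (limma adjusted p = 0.0481). Uncorrected and without αKG replicate 3, it was called higher (limma adjusted p = 0.0263). With 39.7% GC in its longest transcript and 18.7 kb of exon, *Mbnl1* is the most AT-rich of the 10. *Mbnl2* (ENSMUSG00000022139; chromosome 14, 120275669 to 120431697, plus strand) had 1289, 1442 and 1453 counts in DMSO and 1624, 1713 and 1342 in αKG. Here replicates 1 and 2 lay above the controls and replicate 3 within them (log2 fold change 0.16 ± 0.09 SE, limma adjusted p = 0.299).

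The ratio of *Mbnl1* to *Mbnl2* within libraries changed by -0.02 on the log2 scale (exact permutation p = 0.8), with *Mbnl2* at 55.9% to 59.4% of the summed level per kb in every library. The ratio of *Mbnl1* to *Celf1*, the pair whose products act in opposite directions on many exons, was 0.24 higher in αKG with overlapping groups (exact permutation p = 0.2, 0.4 adjusted over 6 ratios). With GC and length corrected its sign turned (-0.08).

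*Rbm20* (ENSMUSG00000043639; chromosome 19, 53677306 to 53867080, plus strand), the repressor of titin exons whose loss lengthens titin, had 2712, 2723 and 2757 counts in DMSO and 2426, 2285 and 2648 in αKG. The 3 αKG libraries lay below all controls. The log2 fold change of -0.16 ± 0.06 (SE, 95% interval -0.29 to -0.02) was not called (limma adjusted p = 0.134). The correction for GC and length left it at -0.14. *Rbm24* (ENSMUSG00000038132; chromosome 13, 46418434 to 46431095, plus strand), required for sarcomere assembly in the embryonic heart, had 881, 915 and 913 counts in DMSO and 746, 732 and 882 in αKG. Replicates 1 and 2 were below the controls and replicate 3 lay among them (log2 fold change -0.20 ± 0.08 SE, limma adjusted p = 0.144, and -0.24 with GC and length corrected). The ratio of the 2 genes differed by 0.05 between the groups (exact permutation p = 0.3).

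*Rbfox2* (ENSMUSG00000033565; chromosome 15, 77078990 to 77307004, minus strand), the main RBFOX protein of these cells by level, had 1621, 1580 and 1528 counts in DMSO and 1450, 1439 and 1499 in αKG. The groups did not overlap, with lower values in αKG, and the log2 fold change of -0.11 ± 0.06 (SE) was not called (limma adjusted p = 0.229). *Rbfox1* (ENSMUSG00000008658; chromosome 16, 5885355 to 7411526, plus strand), the form of adult muscle and neurons, was barely covered despite a locus of 1526 kb: 48, 37 and 38 counts in DMSO and 41, 32 and 46 in αKG. At this depth the 95% interval of its log2 fold change ran from -0.55 to 0.45, and a change smaller than that was not detectable.

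*Qk* (ENSMUSG00000062078; chromosome 17, 10202601 to 10319854, minus strand) had 3530, 3809 and 3753 counts in DMSO and 3321, 3625 and 3651 in αKG, with overlapping groups and a log2 fold change of -0.07 ± 0.06 (SE) at a limma adjusted p of 0.46. With GC and length corrected it became a call, at -0.36 ± 0.09 (limma adjusted p = 0.0471). *Qk* has 41.1% GC in its longest transcript and 14.2 kb of exon. *Ptbp1* (ENSMUSG00000006498; chromosome 10, 79854427 to 79864771, plus strand), the repressor that falls as muscle differentiates, had 307, 304 and 297 counts in DMSO and 325, 293 and 274 in αKG. αKG replicate 1 was above and replicates 2 and 3 were below all controls (log2 fold change -0.03 ± 0.09 SE; 95% interval -0.24 to 0.18; limma adjusted p = 0.859). Of the 75-base windows of *Ptbp1*, 12.7% also occurred in other genes, among them the pseudogene *Gm17134*.

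**Figure D3:**
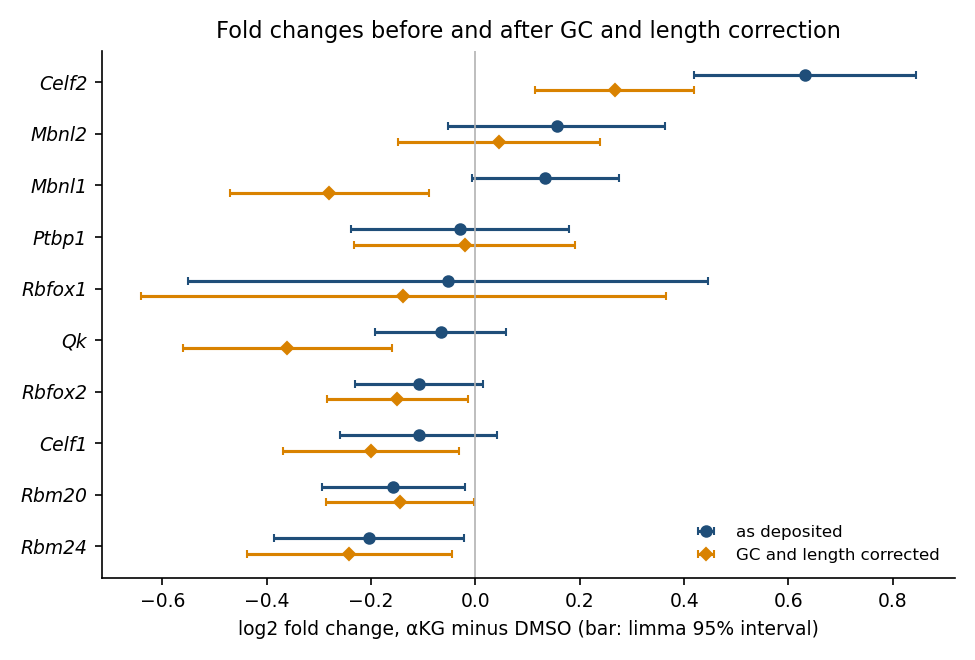
Log2 fold change (αKG minus DMSO) of the 10 regulators from limma, as deposited (blue circles) and with GC content and exon length corrected within each library (orange diamonds); bars are 95% intervals. The correction moves *Celf2* from 0.63 to 0.27, turns *Mbnl1* from 0.13 to -0.28 and lowers *Qk* from -0.07 to -0.36, while *Rbm20* goes from -0.16 to -0.14.

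αKG replicate 3 set much of the spread. Without it 7 of 10 regulators were called, against 37.2% of all genes. *Celf2*, *Mbnl1* and *Mbnl2* were higher (19.3% of all genes) and *Celf1*, *Rbm20*, *Rbm24* and *Rbfox2* lower (17.9%). The log2 fold change was then -0.29 for *Rbm24*, -0.21 for *Rbm20*, 0.26 for *Mbnl2* and -0.17 for *Celf1*, with limma adjusted p of 0.0034, 0.00588, 0.0192 and 0.0107 in that order. *Qk*, *Ptbp1* and *Rbfox1* stayed uncalled. No reason to discard the library was found in the labels. With GC and length corrected in all 6 libraries, 2 of 10 were called, *Celf2* higher and *Qk* lower, against 6.17% of all genes (2.62% higher and 3.55% lower).

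Across the 6 libraries, the gene most like *Celf2* among 8294 genes with a mean of at least 100 was *Enah*, with r = 0.998 over 6 libraries. *Enah*, an actin regulator, had 1787, 1913 and 1903 counts in DMSO and 2721, 2832 and 2290 in αKG. Likewise *Rbm20* was closest to *Bag6* (r = 0.998), *Mbnl1* to *Usp9x* (r = 0.999), *Celf1* to *Sobp* (r = 0.999) and *Rbfox2* to *Glrx* (r = 0.996). Such values are a description over 2 groups of 3 libraries, in which αKG replicates 1 and 2 differ from the rest: 3.4% of the genes compared reached r of 0.95 with *Celf2* and 10.8% with *Rbm24*.

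Some regulators hold further annotated transcripts inside their introns, and all 8 on the regulator's strand had larger log2 fold changes than the gene around them, a difference that was not tested. In 5 members, 13 other listed loci lay within or across the gene, 8 of them on the same strand, 2 of these with a mean under 10 counts. The log2 fold changes of these 8 ran from 0.60 to 2.09. In 5 of the 8 the groups did not overlap, all higher in αKG (13.7% of all genes), and 2 of the 8 were called higher (2.83% of all genes). On the other strand, log2 fold changes were 0.74 for *Gm16299* in *Rbm20* and 0.91 for *1700109K24Rik* in *Rbfox2*. They were 0.07 and 0.17 for *E130317F20Rik* and *Plppr3* across *Ptbp1*, and 0.53 for *Gm13389* in *Celf2*. Only the last lay below the gene around it, all groups overlapped, and only *E130317F20Rik* had a mean above 6 counts. Larger values were thus not particular to the regulator's strand. *Gm10115* (chromosome 2, 6950453 to 6951680), a sense-intronic locus within *Celf2*, had 15, 31 and 27 counts in DMSO and 99, 107 and 43 in αKG, and was higher in all 3 αKG libraries (log2 fold change 1.68 ± 0.38 SE, limma adjusted p = 0.0446). Its neighbour *Gm10855* (6932541 to 6935081) had 37, 58 and 47 counts against 166, 199 and 64, with non-overlapping groups and no call (limma adjusted p = 0.059). Both loci lie upstream of the CpG-rich *Celf2* start shown above, and only the 3 more distal RefSeq starts lie upstream of both. *Gm37589* (chromosome 3, 60535751 to 60539744) within *Mbnl1* had 83, 82 and 73 counts against 236, 247 and 111 and was called higher (log2 fold change 1.22 ± 0.27 SE, limma adjusted p = 0.0434), but not with GC and length corrected (0.62, limma adjusted p = 0.0552). Neither call held without any one of the libraries other than αKG replicate 3 (adjusted p 0.166 to 0.281).

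Set against the gene around them, the summed loci amounted to 7.98%, 13.0% and 10.8% of the *Celf2* count in DMSO and 23.9%, 26.6% and 12.0% in αKG. For the 2 loci in *Mbnl1* this was 7.6%, 7.44% and 6.88% against 18.6%, 17.2% and 9.39%, and for the 2 in *Rbfox2*, *4833412C15Rik* and *Gm49411*, 2.34%, 3.61% and 3.14% against 10.8%, 10.4% and 3.47%. αKG replicate 3 was within the DMSO range for *Celf2* and *Rbfox2* and above it for *Mbnl1*. These loci share no exon with the regulators, so their reads were not part of the regulators' counts. Total RNA also holds unspliced transcripts, and reads from the locus itself and from an intron of the surrounding gene cannot be told apart. For *Ptbp1* the 2 neighbours *E130317F20Rik* and *Plppr3* overlap its exons on the other strand by 295 and 251 bases, and the counting is not stated to use strand.

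**Figure D4:**
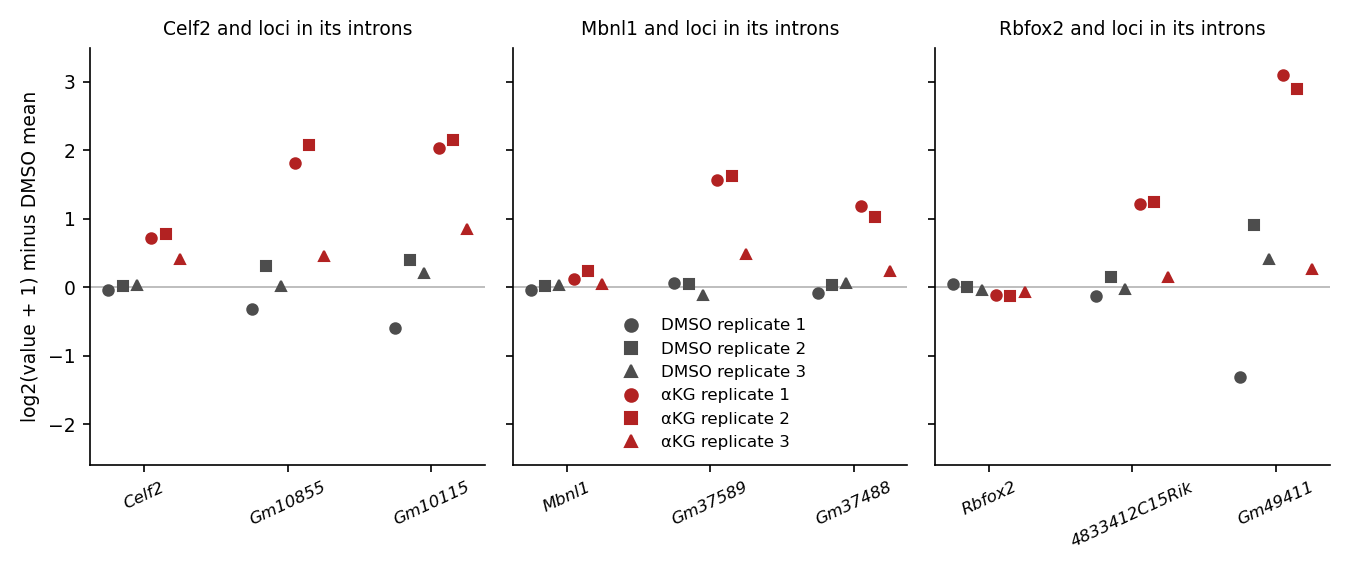
Difference of each library from the DMSO mean, in log2(value + 1), for *Celf2*, *Mbnl1* and *Rbfox2* and for the 2 same-strand loci with a mean of at least 10 counts in the introns of each; grey points are DMSO and red points αKG libraries. The loci lie higher in αKG replicates 1 and 2 than the gene around them, with *Gm49411* in *Rbfox2*, at a mean of 8 counts in DMSO, reaching a log2 fold change of 2.09 while *Rbfox2* itself is at -0.11.

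Of the 11 close relatives of the 10 regulators, 9 were listed and none was called. *Ptbp2*, the relative that replaces PTBP1 in differentiating neurons, had 364, 392 and 398 counts in DMSO and 493, 497 and 447 in αKG. It was higher in every αKG library, with a log2 fold change of 0.32 ± 0.08 (SE) at a limma adjusted p of 0.061. *Ptbp2* exceeded *Ptbp1* in counts in every library but not per kb, so that ranking depends on the exon length used. The share of *Ptbp2* in the summed level of both per kb was 38.0% to 40.9% in DMSO and 43.9% to 46.7% in αKG, without overlap (log2 ratio of *Ptbp1* to *Ptbp2* -0.34, exact permutation p = 0.1, 0.3 adjusted over 6 ratios). *Ptbp2* has 34.2% GC, and with GC and length corrected its log2 fold change was -0.39 and the difference of the log2 ratio 0.37, so the direction of this shift depended on the correction. *Rbm38*, a relative of *Rbm24* that binds similar sites, had 238, 253 and 251 counts against 176, 152 and 226, lower in every αKG library (log2 fold change -0.44 ± 0.14 SE, limma adjusted p = 0.094). *Mbnl3*, the MBNL protein of immature cells, was low, at 45, 31 and 17 counts against 66, 58 and 80 (log2 fold change 1.20 ± 0.32 SE, limma adjusted p = 0.064). *Matr3*, *Zfp638* and *Ptbp3* had log2 fold changes of 0.08, 0.04 and -0.03 (-0.31, -0.32 and -0.38 with GC and length corrected), and *Celf3*, *Celf4* and *Celf5* did not exceed 24 counts in any library.

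In the wider splicing machinery, 132 of 136 listed genes were in the table, and 1 was called, against 3.78% of all genes. That call was higher in αKG, whereas with GC and length corrected none was called higher and 3 lower (6.17% of all genes in either direction). Their groups did not overlap in 42 (31.8%, against 28.3% of all genes), 30 of them higher and 12 lower in αKG. The call was *Tra2b*, an SR-related activator of exons, with 334, 302 and 289 counts in DMSO and 466, 446 and 405 in αKG and no overlap (log2 fold change 0.51 ± 0.09 SE, limma adjusted p = 0.0293). It was not called without any one of the libraries other than αKG replicate 3 (adjusted p 0.0727 to 0.255), nor with GC and length corrected (log2 fold change 0.19, limma adjusted p = 0.197). Of 13 SR proteins, which bind exonic enhancers, 11 had positive values and the median was 0.25 (0.03 with GC and length corrected), the highest of the classes of the machinery apart from the paralogs. The groups did not overlap in 6 of the 13, all higher (13.7% of all genes). *Srsf11*, the most abundant of them, had 751, 750 and 736 counts in DMSO and 1091, 897 and 719 in αKG, so replicate 3 overlapped the controls.

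For the classes that follow, the groups did not overlap in 13.7% of all genes with higher and in 14.6% with lower values in αKG. The 27 hnRNPs, the general repressors and packaging proteins, had no call and a median of 0.08 (-0.09 with GC and length corrected), with 12 not overlapping and higher and 1 lower; *Hnrnpu*, the most abundant, had a log2 fold change of 0.08 (-0.20 with that correction). The 51 core spliceosome genes had no call and a median of -0.09 (-0.16 corrected), with 3 not overlapping and higher and 7 lower; *Srrm2* led them in level with a log2 fold change of -0.01. Other regulators (23 of 25 listed, median 0.04, *Rbm39* the most abundant) and the 9 SR kinases (median 0.02, led by *Prpf4b*) had no call either. With GC and length corrected these medians were -0.11 and -0.17, and 3 of the other regulators were called lower (3.55% of all genes). Without αKG replicate 3, 56 of the 132 were called (37.2% of all genes, 19.3% higher and 17.9% lower). Among them were 7 SR proteins, all higher, and core spliceosome genes, of which 2 were higher and 17 lower.

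**Figure D5:**
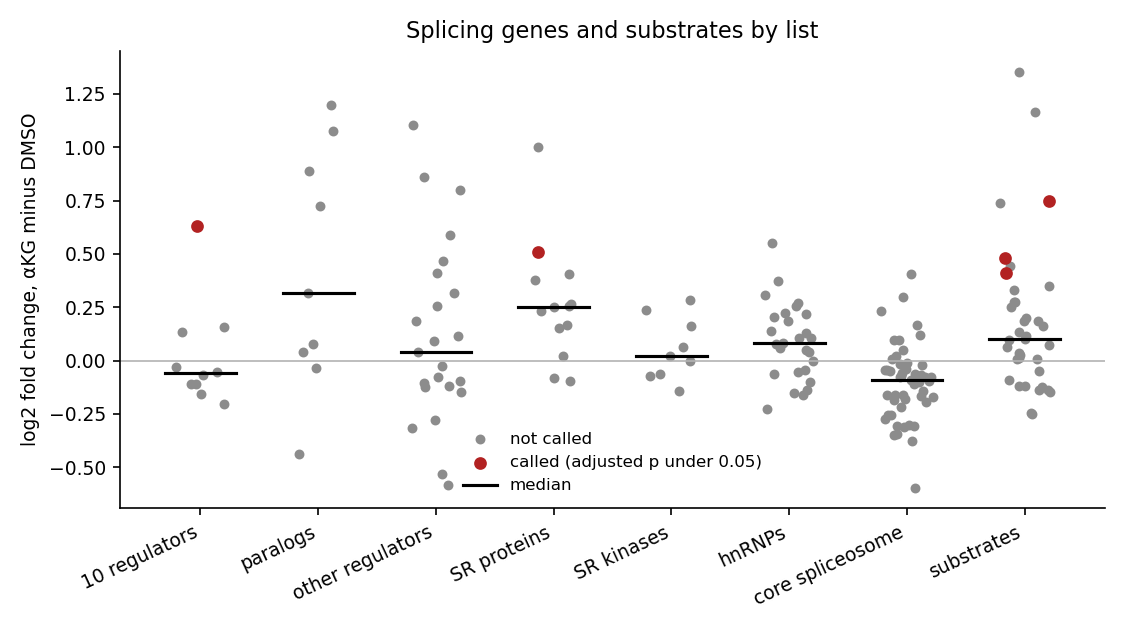
Log2 fold change (αKG minus DMSO) of each listed gene for the 10 regulators, their paralogs, 5 classes of the splicing machinery and the transcripts known as substrates; red points were called by limma at an adjusted p under 0.05, grey ones were not, and black bars are medians. Medians range from -0.09 for the core spliceosome to 0.32 for the 9 paralogs, which with GC and length corrected had the lowest median of these lists at -0.31, and 5 genes in all are red.

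Transcripts whose exons these regulators choose were examined as whole genes, which says nothing about which exons they held. Of 38, 37 were listed and 3 were called, all higher (3.78% of all genes in either direction, 2.83% higher). With GC and length corrected, 2 were called higher (2.62% of all genes) and 3 lower (3.55%). Over the 37 the median was 0.10 (0.0084 with that correction), and 18 did not overlap, 11 higher and 7 lower (28.3% of all genes, 13.7% higher and 14.6% lower). *Pdlim3*, a Z-disc protein with mutually exclusive muscle exons, had 174, 188 and 191 counts in DMSO and 290, 302 and 341 in αKG, with αKG replicate 3 the highest (log2 fold change 0.75 ± 0.10 SE, limma adjusted p = 0.00985). *Enah*, given above, followed with 0.48 ± 0.08 (SE, limma adjusted p = 0.0224). *Camk2d*, the cardiac calcium/calmodulin kinase and an RBM20 substrate, had 1834, 1906 and 1793 counts against 2613, 2705 and 2079, all αKG libraries above all controls (log2 fold change 0.41 ± 0.09 SE, limma adjusted p = 0.0446, and 0.13 with GC and length corrected). None of these 3 calls held without any one of the libraries other than αKG replicate 3 (adjusted p 0.0545 to 0.271).

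*Ttn*, the sarcomeric spring and the main RBM20 substrate, had 51569, 54216 and 53157 counts in DMSO and 80306, 84136 and 55569 in αKG. Replicates 1 and 2 stood far above the controls and replicate 3 just above them, with a log2 fold change of 0.45 ± 0.13 (SE) at a limma adjusted p of 0.073 that was -0.21 with GC and length corrected. *Ryr2*, also spliced by RBM20, had 8448, 9026 and 9091 against 11406, 11297 and 9528 (log2 fold change 0.27 ± 0.07 SE, limma adjusted p = 0.057, and 0.01 with GC and length corrected and -0.12 after quantile normalization). *Ldb3*, a Z-disc protein and RBM20 substrate, lay lower in every αKG library, at 2869, 2956 and 2968 against 2555, 2598 and 2853 (log2 fold change -0.14 ± 0.06 SE, limma adjusted p = 0.152). *Tnnt2*, whose fetal exon is the classic target of the MBNL and CELF proteins, had 3064, 3038 and 3069 against 3681, 3209 and 2812, spread to both sides of the controls (log2 fold change 0.07 ± 0.09 SE, limma adjusted p = 0.592). Without αKG replicate 3, 24 of the 37 were called, 18 higher and 6 lower (37.2% of all genes, 19.3% higher and 17.9% lower).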

How the data were processed

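The table held normalized counts for 6 libraries (3 DMSO, 3 αKG), a score made by the authors, who divided gene counts by size factors and rounded to whole numbers, as estimated from the deposited values. Per the labels and the study's methods, reads of 75 bases from a stranded total-RNA kit were trimmed (Trimmomatic 0.39), aligned (STAR 2.7.10a) to mm10 and counted per gene (featureCounts 2.0.3, DESeq2 1.30.1 for normalization); reads hitting several genes or places were dropped. The study's methods give the read length and kit for RNA from isolated adult CMs. Picard 2.27.1 was also listed among the tools. The order and settings are the submitters' notes. The study's methods and labels give different concentrations of the αKG ester; the labels' is printed. Coordinates are the deposited ones, 98.95% identical to GENCODE M21.

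Values were tested on log2(value + 1) with limma 3.58.1 (R 4.3.3; variance trend, treatment only, 6 libraries, 20066 genes, Benjamini-Hochberg adjusted p under 0.05), since the rounded values are not raw counts. The fit was run on simulated counts whose spread came from the DMSO libraries, with no library like αKG replicate 3, so that check does not cover its effect. Ratios within libraries were compared by exact two-sided permutation tests (scipy 1.17.1). Levels per kb used the summed exons of each gene in GENCODE M21. The GC and length correction removed, per library, natural splines of GC percentage and log2 exon length, for 20037 genes with both. GC percentage was that of each gene's longest transcript, and exon length was summed over all its transcripts. Promoter windows were from RefSeq, GRCm38.p6, and 8 of the 10 members matched, with 14 windows in all; *Rbm20* and *Rbfox2* had none. Depth limits precision: 1 read was worth 0.926 to 1.12 of a value.

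The members and gene lists were chosen with earlier results of these data known. Genes named are the members, their paralogs, the called and the most abundant genes of the other lists (for substrates, 5 fixed and the called ones), the most similar gene, and the 2 most abundant markers per cell type; *Cnn1* and the loci inside members are named beyond that. A marker gene was left out and is not reported here. Alternatives were other pseudocounts (0.1, 10), a mean of at least 10, equal totals, quantile normalization, no variance trend, limma-voom on estimated reads, a replicate block, the GC and length correction, leaving out each library, and averaging DMSO replicates 2 and 3.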

Additional observations from a re-analysis of the deposited data

How the results depend on the processing

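All limits here are those of 6 libraries, of which αKG replicate 3 resembled the controls, and of their depth. The number of genes called was 759, of members 1, of other splicing factors 1 and of substrates 3. Leaving out 1 library gave 0 to 7466 genes, 0 to 7 members, 0 to 56 factors and 0 to 24 substrates, the highest without αKG replicate 3. Called counts of genes, members, factors and substrates were 27, 0, 0 and 0 without the variance trend, 46, 0, 0 and 0 with the replicate block, 10, 0, 0 and 0 with DMSO replicates 2 and 3 averaged, 1239, 2, 3 and 5 with GC and length corrected, 1703, 2, 5 and 6 with both that correction and a block, and 5648, 3, 35 and 20 at an unadjusted p under 0.05. The 2 members called with GC and length corrected were *Celf2*, higher, and *Qk*, lower. With the block added they were *Qk* and *Mbnl1*, both lower (limma adjusted p = 0.0261 and 0.0481), and *Celf2* was not called (limma adjusted p = 0.0537). A pseudocount of 0.1 called 346 genes and 2 substrates, and limma-voom 362 genes and 2 substrates. Same-numbered libraries deviated from their group means together at r of -0.07, 0.14 and 0.00. αKG replicate 3 dominates those deviations in its group, with a chi-square per gene of 10.8 and 9.83 from replicates 1 and 2, against 1.52 between these. The correlations therefore cannot decide whether the numbers pair the libraries. With the block the *Celf2* limma adjusted p was 0.0701. Of 863 values of 51 named genes under these settings, 706 kept direction and call, 95 lost and 32 gained a call, and 30 changed sign.

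Signs turned as follows, with the cause not tested. With GC and length corrected, with or without the block, log2 fold changes were -0.20 for *Hnrnpu*, -0.31 for *Matr3*, -0.28 for *Mbnl1*, -0.18 for *Prpf4b*, -0.39 for *Ptbp2*, -0.047 for *Rbm39*, -0.21 for *Ttn* and -0.32 for *Zfp638*, and ratio differences -0.080 for *Mbnl1*:*Celf1* and 0.37 for *Ptbp1*:*Ptbp2*. With quantile normalization they were -0.0073 for *Hnrnpu*, -0.10 for *Myh6*, 0.013 for *Ptbp1*, 0.0054 for *Ptbp3*, -0.12 for *Ryr2*, -0.059 for *Tnnt2* and -0.040 for *Zfp638*, and ratio differences -0.14 for *Rbfox1*:*Rbfox2* and -0.077 for *Rbm20*:*Rbm24*. Without 1 library the ranges crossed 0 for *Ptbp1* (-0.095 to 0.028), *Rbfox1* (-0.16 to 0.091), *Srrm2* (-0.049 to 0.017), *Tnnt2* (-0.025 to 0.17), *Mrc1* (-0.33 to 0.084), *Mbnl1*:*Mbnl2* (-0.083 to 0.019) and *Rbfox1*:*Rbfox2* (-0.039 to 0.19).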
